A study of Mus musculus with 9 samples.

Results

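The cytosolic ribosomal protein genes encode the proteins of the large and the small ribosomal subunit. They were chosen as the rows of the count table whose mouse symbol begins with Rpl or Rps followed by a, p0, p1, p2 or a number, with an optional suffix x, a, l or l1. This gave 86 of 52264 rows. Both Rpl32l and Rps12l1 had 0 counts in all 9 libraries, and the other 84 genes, 52 named Rpl and 32 named Rps, entered the test. They included copies and paralogs of other members that may share reads with them, such as Rpl3l, Rpl6l, Rpl7l1, Rpl10l, Rpl22l1, Rpl39l, Rps4l and Rps27l.

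The libraries came from mouse embryonic stem cells that carry the genotype label β-catenin-/- in every group, control included. β-catenin is the transcriptional effector of Wnt signalling that the kinase GSK3 marks for degradation. The cells had been expanded on feeder-treated dishes in 3 µM CHIR-99021, 1 µM PD03 and 40 ng/ml LIF, moved overnight to N2B27 medium, and then held for 30 min without inhibitor (control), with BRD0705 or with CHIR, in 3 libraries each. BRD0705 is an inhibitor selective for the GSK3α isoform, and CHIR is taken to be CHIR-99021, which inhibits both GSK3 isoforms. The dose of the 30 min exposure and the number of clones behind the genotype are not given in the labels, nor whether the 3 libraries of a group were separate cultures, so p-values measure only the spread between these libraries.

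Ribosomal protein mRNAs are among the most abundant of a growing cell, and their proteins are needed in near-equal numbers, since a ribosome holds a single copy of most of them. Their mRNAs begin with a cytosine followed by a run of pyrimidines, the 5′ terminal oligopyrimidine (TOP) motif, through which mTOR signalling and the LARP1 protein control their translation and stability. GSK3 acts upstream of mTOR through the TSC complex, and phosphorylation of the ribosomal protein S6, encoded by Rps6, is the classical readout of that pathway. RNA counts do not measure that phosphorylation.

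To show what these starts look like, windows of 30 bases around the annotated transcription start are given for 6 genes that passed the test against control under BRD0705 and for 3 that did not (Rps26, Rps6 and Rpl15). They are RefSeq sequences on GRCm38.p6, written 5′ to 3′ on the strand of the gene with the start base as the sixteenth, and capitals mark the longest pyrimidine run of at least 4 bases in the window.
Rpl23 (chr11:97782425-97782454, minus strand): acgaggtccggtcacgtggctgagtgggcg
Rpl11 (chr4:136053379-136053408, minus strand): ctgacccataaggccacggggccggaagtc
Rpl12 (chr2:32961697-32961726, plus strand): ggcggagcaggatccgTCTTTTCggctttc
Rpl35a (chr16:33056467-33056496, plus strand): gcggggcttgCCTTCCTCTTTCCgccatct
Rpl39 (chrX:37085208-37085237, minus strand): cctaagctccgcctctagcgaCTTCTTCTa
Rps24 (chr14:24490663-24490692, plus strand): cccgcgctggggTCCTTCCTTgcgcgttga
Rps26 (chr10:128626492-128626521, minus strand): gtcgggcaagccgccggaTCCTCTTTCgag
Rps6 (chr4:86857353-86857382, minus strand): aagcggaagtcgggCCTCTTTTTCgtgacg
Rpl15 (chr14:18270972-18271001, minus strand): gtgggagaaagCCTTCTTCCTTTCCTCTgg
Rpl35a has 3 listed starts and Rps24 has 2, and the start with the longest run is shown. Of the 6 that passed, Rpl23 and Rpl11, both lower under each inhibitor, held no pyrimidine run of 4 bases at the listed start. The other windows of that set, Rpl12, Rpl39, Rps24 and Rpl35a, held runs of 7, 8, 9 and 13 bases. Those of Rps26, Rps6 and Rpl15, which did not pass the test, held runs of 9, 10 and 17 bases. Windows read but not shown were those of Rps2, which did not pass, with a run of 6 bases, and of 4 genes that passed. These were Rpl36a, Rpl6, Rps27 and Rpl13a, with runs of 5, 6, 9 and 13 bases. A relation of run length to the change was not tested.

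The start-site table held 75 starts for 63 of the 86 genes, and 5 features were searched in them. A pyrimidine run of at least 8 bases within 30 bases of the start was present at 50.7% of these starts, against 22.9% of all 32851 starts in the table. A C at the start base followed by 4 pyrimidines was present at 18.7% of them, against 2.51% of all starts. The ETS-type motif CCGGAAG, searched on both strands of the 300 bases, was present in 34.7% against 8.86%. AAGATGG, a YY1-type motif searched likewise on both strands, was present in 16% against 6.34%, and TATAAA on the coding strand 11 to 40 bases before the start in 1.33% against 2.08%.

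Among the starts of the genes lower under BRD0705 (13 starts of 10 genes) the pyrimidine run was present at 53.8%, against 50% of the other 62 starts. The C with 4 pyrimidines stood at 15.4% against 19.4%, CCGGAAG in 23.1% against 37.1%, and TATAAA in 0 against 1 start. AAGATGG was present in 5 of the 13 starts (38.5%) and in 7 of the other 62 (11.3%). Several starts belong to 1 gene, and no test was made of any of these shares.

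Total counts per library ranged from 17359422 to 20773337. The libraries expressed the embryonic stem cell genes Pou5f1 at 917 CPM (the count scaled to a common library total) and Nanog at 544 CPM on average, and also the fibroblast genes Col1a1 at 1585 CPM and Lox at 790.1 CPM. Summed over 10 fibroblast markers, all detected in every library, the level was 3110 to 3548 CPM in control, 3919 to 3999 CPM under BRD0705 and 3306 to 4150 CPM under CHIR. Ctnnb1, the gene of β-catenin, had 5657 to 7457 counts in every library, so its row does not show the loss named in the genotype label.

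BRD0705 against control compares these transcripts with and without exposure to the GSK3α-selective inhibitor. The activity of either isoform in these cells is not shown by RNA counts. Of the 84 genes, 12 (14.3%) fell in an edgeR quasi-likelihood test, with Benjamini-Hochberg adjusted p-values over 15366 genes, while 0.534% of all genes tested fell and 1.22% changed in either direction. The falls were modest, from 14.3% for Rpl6 to 28.0% for Rpl23. The genes were Rpl6, Rpl11, Rpl12, Rpl13a, Rpl23, Rpl35a, Rpl36a and Rpl39 of the large subunit and Rps20, Rps24, Rps27 and Rps27a of the small subunit. None rose by that test, where 0.69% of all genes did. At an unadjusted p under 0.05, 1 gene of the 84, Rps26, stood higher, against 7.77% of all genes, and with DESeq2 that gene also passed after adjustment. The count of 12 rested on single libraries: it was 1 without the first BRD0705 library, 2 without the second and 26 without the third, and 5 without the second or the third control library. The share of all genes that passed in each of those fits is not given here, so these swings are not read as particular to these genes.

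Lower estimates extended beyond these genes. The log2 fold change was below 0 in 73 of 84 (86.9%), against 51% of all genes tested, and an unadjusted p under 0.05 with a lower level was reached by 41 of 84 (48.8%) against 8.08%. All 3 BRD0705 values lay below all 3 control values for 31 of 84 (36.9%) against 10.4%. The median log2 fold change was -0.14, and over all genes tested it was -0.0038. In bulk RNA, less of these transcripts per cell and a changed mix of cells that hold them at different levels cannot be told apart.

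**Figure D1:**
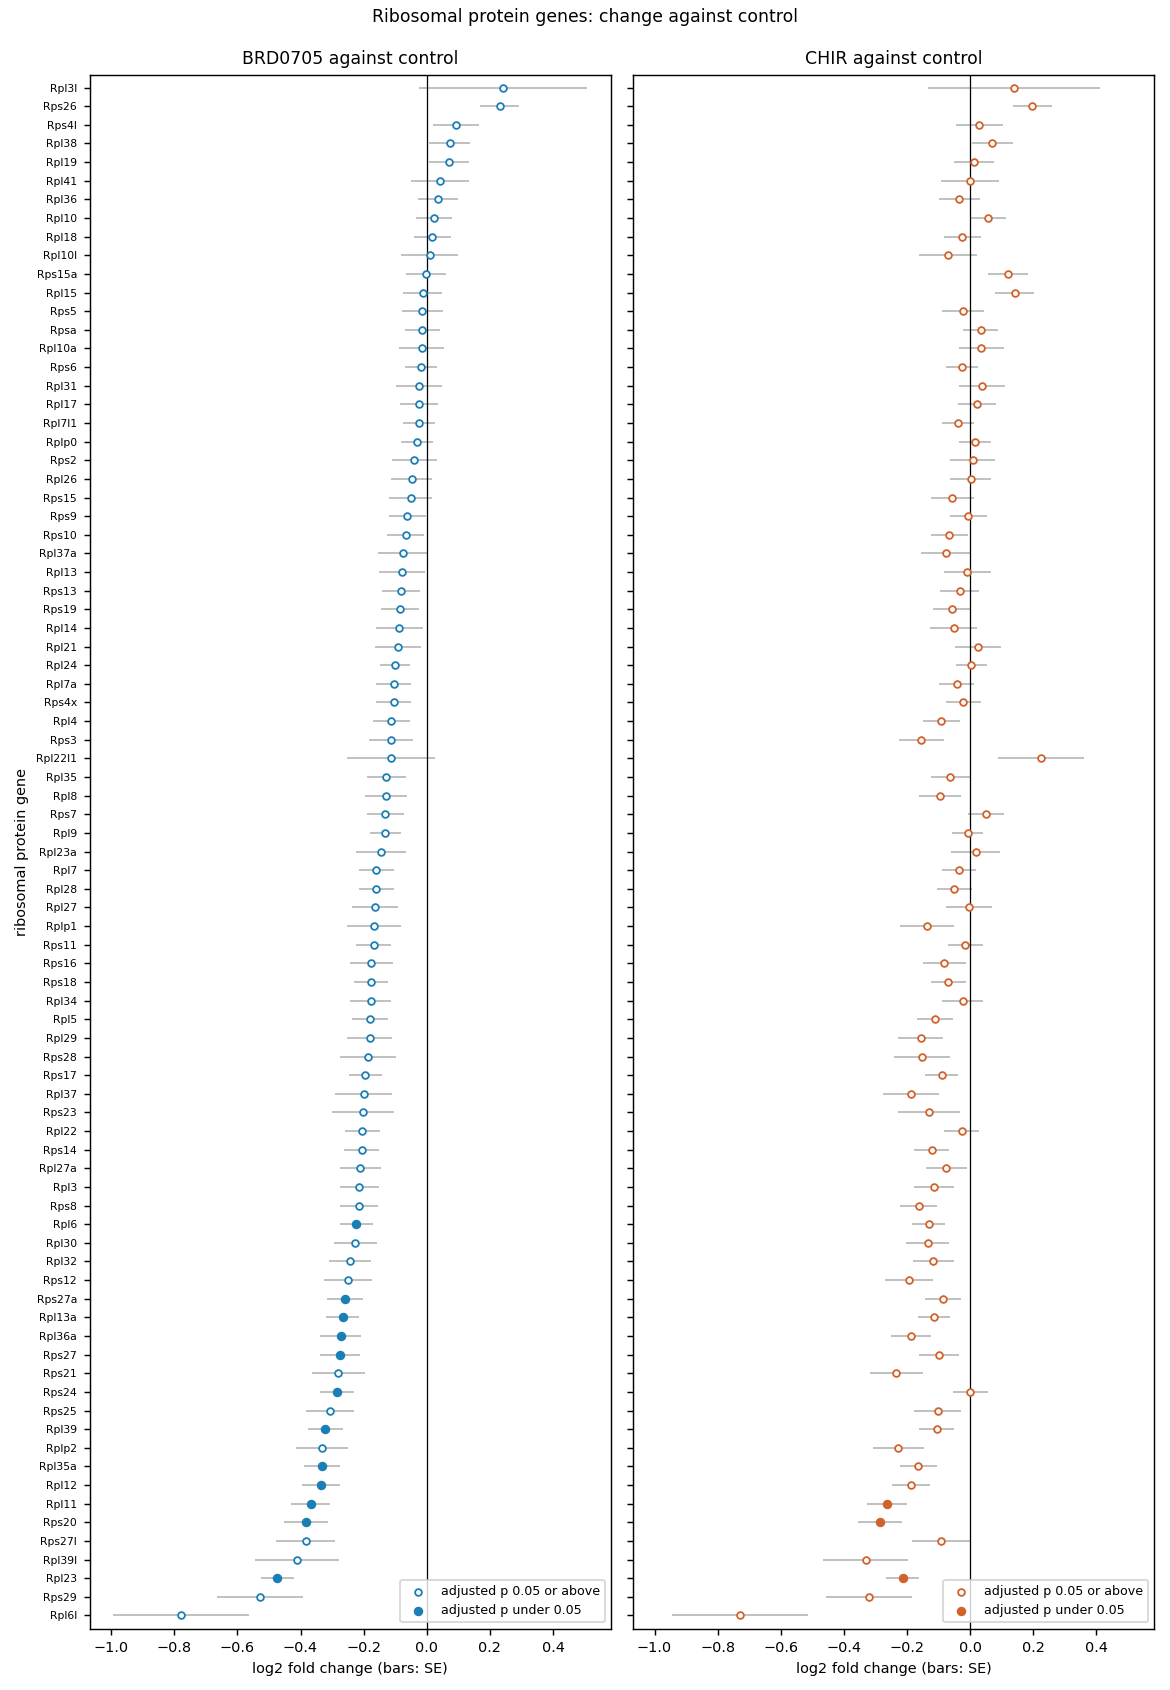
Log2 fold change with its standard error (horizontal axis) for 83 of the 84 tested ribosomal protein genes (vertical axis), with BRD0705 on the left and CHIR on the right against the same 3 control libraries. Filled points have an adjusted p under 0.05, 12 under BRD0705 and 3 under CHIR, and all of the filled points lie below 0.

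Rpl23 (GRCm38.p6 chr11:97777526-97782439), a large subunit protein also known to bind Mdm2, had the largest fall of the genes that passed. Its levels were 757, 739 and 729 CPM in control, 506, 541 and 555 CPM under BRD0705, and 612, 669 and 637 CPM under CHIR. The 3 groups were separate, with BRD0705 lowest and CHIR between. The log2 fold change under BRD0705 was -0.47 ± 0.05 (SE, n = 3 against 3), with a Benjamini-Hochberg adjusted p of 0.00057 in edgeR.

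Rpl11 (chr4:136049354-136053393), which with Rpl5 and the 5S ribosomal RNA forms a particle that can bind Mdm2, stood at 507, 444 and 447 CPM in control and at 363, 335 and 385 CPM under BRD0705. Every BRD0705 library was below every control library. It fell by 0.37 ± 0.06 on the log2 scale (SE, n = 3 against 3; Benjamini-Hochberg adjusted p = 0.0087 in edgeR). Its partner Rpl5 did not pass, at 966 ± 29.2 CPM in control and 852 ± 71.1 CPM under BRD0705 (SD, n = 3), although those libraries did not overlap either.

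Rps20 (chr4:3831584-3835655), in the head of the small subunit, measured 509, 435 and 428 CPM in control and 328, 338 and 387 CPM under BRD0705. Rpl12 (chr2:32961712-32964045), which with Rplp0 forms the base of the stalk that recruits translation factors, measured 1653, 1508 and 1507 CPM in control and 1189, 1195 and 1313 CPM under BRD0705. For both genes the groups were separate and the third BRD0705 library was the highest of its group. The log2 fold changes were -0.38 ± 0.07 and -0.34 ± 0.06 (SE, n = 3 against 3), with adjusted p = 0.011 and 0.010 in edgeR with Benjamini-Hochberg adjustment.

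The stalk proteins themselves did not pass. Rplp0 was at 2716 ± 111 CPM in control and 2659 ± 95 CPM under BRD0705, and Rplp1 at 1335 ± 157 and 1189 ± 112 CPM (SD, n = 3). Rplp2 had control values of 293, 250.4 and 278 CPM and BRD0705 values of 218, 188 and 246 CPM. These did not overlap, but the adjusted p was 0.052 in edgeR with Benjamini-Hochberg adjustment.

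Rpl39 lines the exit tunnel of the ribosome and is one of the shortest of these proteins. It was at 151, 136 and 144 CPM in control and at 109, 119.8 and 116 CPM under BRD0705, so the groups were separate. Rpl35a, mutated in some patients with Diamond-Blackfan anaemia, was at 194, 194 and 178 CPM in control and at 143, 144 and 162 CPM under BRD0705, also separate. The log2 fold changes were -0.32 ± 0.06 and -0.33 ± 0.06 (SE, n = 3 against 3), each with adjusted p = 0.0093 in edgeR with Benjamini-Hochberg adjustment.

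Rps24 (chr14:24490678-24496960), another gene mutated in that anaemia, was at 795, 751 and 799 CPM in control and at 613, 624 and 689 CPM under BRD0705, with no overlap. The other 5 genes that fell, Rps27, Rps27a (a fusion of ubiquitin to a small subunit protein), Rpl6, Rpl13a and Rpl36a, had log2 fold changes between -0.28 and -0.22. Their adjusted p ranged from 0.018 for Rpl13a to 0.044 for Rpl36a in edgeR with Benjamini-Hochberg adjustment. In each of these 6 genes the lowest control library was above the highest BRD0705 library.

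**Figure D2:**
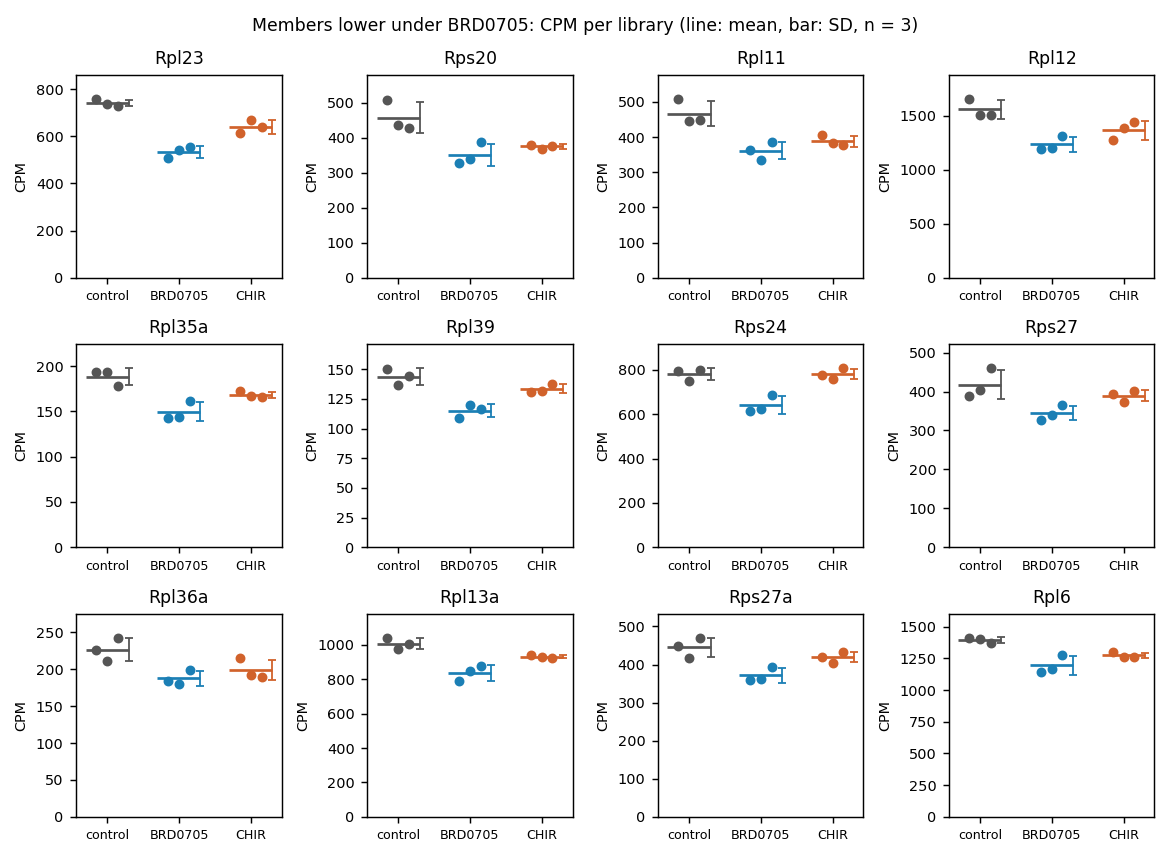
CPM (vertical axis, from 0) in each library (points) of the 12 genes that fell under BRD0705, by group, with the mean as a line and the SD (n = 3) as a bar. In every panel the 3 BRD0705 points lie below the 3 control points, and for Rps24 the CHIR points lie at the control level (782 ± 23.9 against 782 ± 26.4 CPM).

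Large falls were also estimated for genes that did not pass. Rps29, a short small subunit protein, had 171, 120.4 and 155 CPM in control and 114, 76.5 and 118 CPM under BRD0705, a log2 fold change of -0.53 ± 0.14 (SE, n = 3 against 3). Its replicates spread widely, and the adjusted p was 0.061 in edgeR with Benjamini-Hochberg adjustment. Rpl6l had the lowest estimate, -0.78 ± 0.22, at no more than 3.89 CPM in any library, and GENCODE vM39 lists it as a processed pseudogene.

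Rps26 (chr10:128624529-128626506) stood apart in the other direction. Its protein lines the mRNA exit channel of the small subunit. It had 3665, 3531 and 3835 CPM in control, 4440.3, 4161 and 4342 CPM under BRD0705, and 3988, 3982 and 4674 CPM under CHIR. All 6 inhibitor libraries were above all 3 control libraries, and it was the only gene of the 84 with no overlap in this direction under BRD0705, where 9.83% of all genes had none. The log2 fold changes of 0.23 ± 0.06 and 0.20 ± 0.06 (SE, n = 3 against 3) did not pass, with adjusted p = 0.071 and 0.066 in edgeR with Benjamini-Hochberg adjustment. With the planned correction for GC content and transcript length both passed, at 0.33 and 0.28 (edgeR, Benjamini-Hochberg adjusted p = 0.012 and 0.0048). Both also passed with library number in the fit, and neither did with a fibroblast marker score as covariate. The 2 comparisons share the control libraries.

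The genes with the highest level per coding length did not pass the test. Reads can also come from untranslated regions, which that length leaves out, and Rpl41 had 667 CPM over 75 nt of coding sequence. Per kilobase of coding sequence, the highest levels over the 9 libraries were those of Rps26 at 11794 CPM, Rpl41 at 8895 CPM and Rps2 at 5269.6 CPM, against a median of 1251 CPM. The log2 fold changes under BRD0705 were 0.04 ± 0.09 for Rpl41, which encodes the smallest of these proteins, and -0.04 ± 0.07 for Rps2 (SE, n = 3 against 3). Rps6 had 1523, 1402 and 1421 CPM in control, 1379.5, 1461 and 1449 CPM under BRD0705 and 1378, 1416 and 1473 CPM under CHIR, and all 3 groups overlapped. Rpsa, also known as the laminin receptor precursor, was at 4246 ± 202, 4205 ± 251 and 4344 ± 102 CPM (SD, n = 3).

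Across the 83 genes with a coding length, the change under BRD0705 went with length. The median log2 fold change was -0.20 for the 42 genes with a coding length of up to 456 nt, of which 7 fell, and -0.09 for the 41 longer ones, of which 5 fell. Spearman's rho between coding length and log2 fold change was 0.386 over these genes and 0.154 over 13677 genes tested. Under CHIR it was 0.297 over the ribosomal protein genes and -0.0365 over all. Length was not the only such property: for mean log2 CPM rho was 0.354 under BRD0705 and 0.317 under CHIR over the 84 genes. For GC content rho under BRD0705 was 0.196 over the 84 genes and 0.27 over 15060 genes tested, and under CHIR it was -0.0287 and -0.0112. These points share the same libraries, and the share of length in the falls was not tested beyond corrections. A correction chosen after seeing the data took the trend over GC content and coding length out of each library. In that fit 12 of 83 genes fell, 8 of them among the 12 above, and 1 rose (Rps26), with the share of all genes not given here. With the planned correction for GC content and transcript length, Rpl6, Rpl35a, Rpl36a, Rps24, Rps27 and Rps27a of the original 12 did not pass. Outside the 12, Rplp2 passed as lower and Rps26 as higher in that fit.

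**Figure D3:**
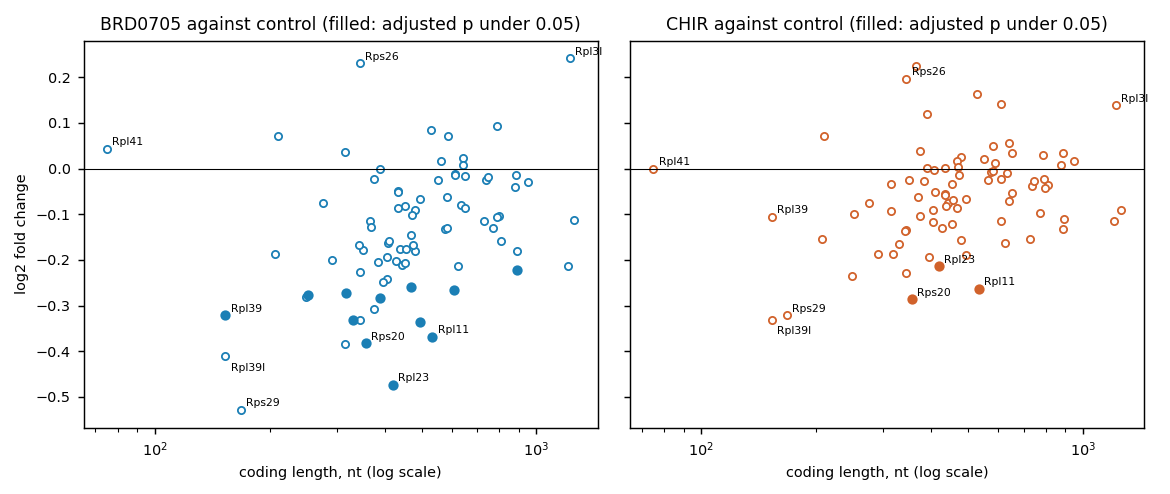
Log2 fold change against control (vertical axis) by coding length in nucleotides (horizontal axis, log scale) for the 83 tested genes with a coding length, with BRD0705 on the left and CHIR on the right. Filled points passed the test, and the shortest genes, such as Rpl39 and Rps29, lie mostly below 0, with Rpl41 near 0.

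CHIR against control makes the same comparison for the inhibitor of both isoforms. Rpl11, Rpl23 and Rps20 fell, 3 of 84 genes (3.57%), which is near the 3.78% of all genes that fell in this comparison, where 6.3% changed in either direction. No gene rose in edgeR with Benjamini-Hochberg adjustment, where 2.52% of all genes did. At an unadjusted p under 0.05, 19 of 84 stood lower (22.6% against 11.5% of all genes). On that measure 3 stood higher (3.57% against 8.96%), Rpl15 and Rps26 among them, and DESeq2 called 1 higher after adjustment, Rps26. A log2 fold change below 0 was found in 62 of 84 (73.8%) against 52.4% of all genes, and the median was -0.06 against -0.0091.

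The control and CHIR values did not overlap, with CHIR lower, in 14 of 84 genes (16.7%) against 14.1% of all genes. Rpl11 had 406, 383 and 376 CPM and Rps20 had 380.5, 368 and 377 CPM under CHIR, each below all of its control libraries. Their log2 fold changes were -0.26 ± 0.06 and -0.29 ± 0.07, and that of Rpl23 was -0.21 ± 0.05 (SE, n = 3 against 3). The adjusted p were 0.016, 0.017 and 0.019 in edgeR with Benjamini-Hochberg adjustment. No gene of the 3 passed in every fit that left out 1 library: without the first control library none of the 84 passed. In that fit 8 were lower at an unadjusted p under 0.05 (9.52%, against 9.56% of all genes) and 2 higher (2.38% against 9.18%).

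Compared directly at the same time point, BRD0705 was below CHIR for Rpl23, Rpl39 and Rps24, 3 of 84 genes (3.57%) against 2.97% of all genes, and above it for 0, against 4.8%. In either direction 7.77% of all genes differed. Those lower at an unadjusted p under 0.05 were 20 of 84 (23.8% against 10.5% of all genes). No gene stood higher on that measure, where 12% of all genes did, or with DESeq2. Rps24 had 778, 760.3 and 808 CPM under CHIR, all above the BRD0705 values, and its log2 difference was -0.28 (95% interval -0.40 to -0.17; Benjamini-Hochberg adjusted p = 0.0036 in edgeR). For Rpl23 the difference was -0.26 (95% interval -0.37 to -0.15), and both genes passed in all 9 fits that left out 1 library. Rpl39, at 131, 132 and 138 CPM under CHIR, differed by -0.22 ± 0.06 (SE, n = 3 against 3). It passed in 6 of those 9 fits and was lost without the first BRD0705 library or without the second or the third CHIR library, with a Benjamini-Hochberg adjusted p of up to 0.12 in edgeR.

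The direct difference was below 0 in 69 of 84 genes (82.1%) against 49.2% of all genes, with a median of -0.07 against 0.0038. Embryonic stem cell markers also stood lower with BRD0705 than with CHIR: 6 of 8 had a log2 difference below 0, with a median of -0.10. Of the 8, 3 passed the test as lower, Klf4, Tdgf1 and Esrrb, where 2.97% of all genes did. Their mean log2 CPM was 8.39 to 8.45 in the BRD0705 libraries and 8.51 to 8.55 in the CHIR libraries, with 8.44 to 8.49 in control, and the part of this in the ribosomal protein values was not tested. BRD0705 values lay below all CHIR values in 16 of 84 (19%) against 12.9%, and above all of them in 0 against 13.7%. For Rpl11 the difference was -0.11 (95% interval -0.24 to 0.03), for Rps20 -0.10 (-0.24 to 0.05) and for Rps26 0.03 (-0.10 to 0.16). The interval crossed 0 in 64 of the 81 genes that did not pass, with a median half-width of 0.134 on the log2 scale.

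The libraries of a group were not equally low. Summed counts of the 86 genes made up 7.19, 6.85 and 7.10% of the control libraries, 6.52, 6.41 and 7.05% of the BRD0705 libraries and 6.81, 6.67 and 6.92% of the CHIR libraries. The third BRD0705 library overlapped the control range, so the group shares of 7.04 ± 0.17, 6.66 ± 0.34 and 6.80 ± 0.12% (SD, n = 3) differed by about their spread. In that library 47 of the 84 genes lay above their mean over all 9 libraries, against 10 and 7 in the first and second BRD0705 libraries, and 74, 44 and 66 in the controls.

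Without the third BRD0705 library 26 genes fell, among them all 12 named above, and the median was -0.17. The share of all genes that fell in that fit is not given here. Over the 9 fits that left out 1 library the median lay between -0.17 and -0.098. Rpl23 passed in all 9 fits that left out 1 library. The second control library, in which the genes were lowest of that group, is one of those without which fewer genes fell. In each of the 3 groups the library numbered 2 was the lowest for these genes, with 11, 13 and 17 of 84 above the group mean in control, BRD0705 and CHIR. The genes varied more between replicates than others, with a median within-group SD of 0.0913 on the log2 scale for 77 of them at 100 CPM or more, against 0.0663 for all 2162 genes at that level.

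**Figure D4:**
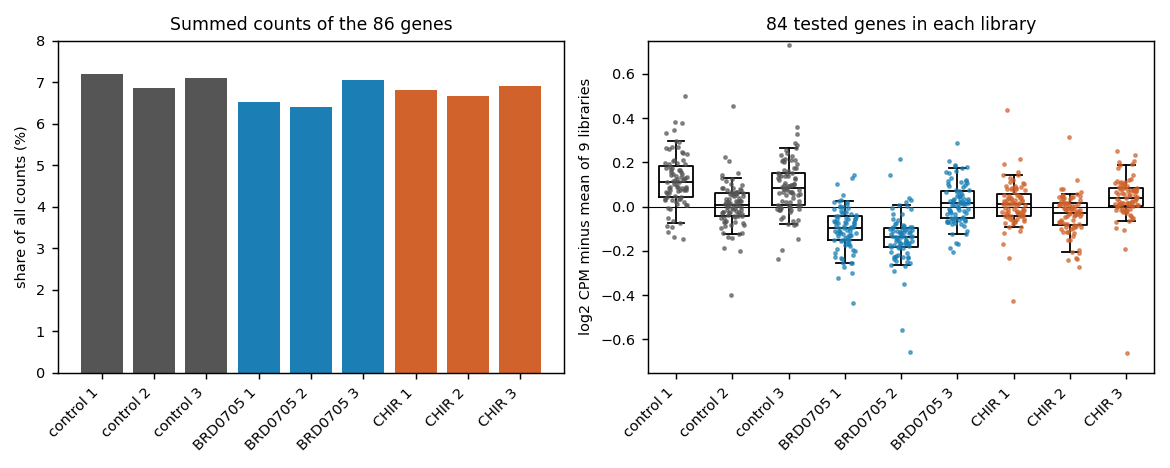
Left, share of all counts in the 86 ribosomal protein genes (percent, from 0) in each of the 9 libraries; right, log2 CPM of each of the 84 tested genes minus its mean over the 9 libraries, with boxes for the quartiles and whiskers to the 5th and the 95th percentile. The first and second BRD0705 libraries are lowest (6.52 and 6.41% of counts), and the third, at 7.05%, lies within the control range of 6.85 to 7.19%.

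Fibroblast marker levels moved with the inhibitor groups. The mean log2 CPM of the 10 markers was 7.44 ± 0.11 in control, 7.67 ± 0.01 under BRD0705 and 7.64 ± 0.17 under CHIR (SD, n = 3), and all 10 markers had a log2 fold change above 0 under each inhibitor. Among them 3 of 10, Lox, Col5a1 and Col1a1, rose under both, where 0.69% of all genes rose under BRD0705 and 2.52% under CHIR. All BRD0705 libraries were above all controls in this score, so the score and the treatment cannot be told apart here. With the score as a covariate 0 of the 84 genes passed for BRD0705 in edgeR, and 0 of all 15366 genes passed. At an unadjusted p under 0.05, 33 of the 84 were lower (39.3%, against 4.43% of all genes in that fit) and 1 was higher (1.19% against 4.17%). The estimate for Rpl23 in that fit was -0.50 and its adjusted p 0.065 by edgeR with Benjamini-Hochberg adjustment.

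Transcripts of the mitochondrial genome took 1.53 ± 0.05, 1.61 ± 0.26 and 1.86 ± 0.06% of counts (SD, n = 3) in control, BRD0705 and CHIR, and their part in the shares above was not tested. The deviations of a library's genes from the 9-library mean correlated with coding length over all genes at Spearman's rho 0.191 and 0.189 in the first and second BRD0705 libraries and -0.0207 in the third. In the controls this was -0.0703 to -0.0174 and with CHIR -0.114 to -0.0586. With GC content the correlations were -0.293 to 0.194 in control, 0.0571 to 0.262 with BRD0705 and -0.117 to -0.0583 with CHIR. The part of these trends in the number of genes that fell was likewise not tested beyond the corrections above.

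Paralogs that replace a ribosomal protein in some tissues were low. Rpl3l, known from muscle, was at 1.21 ± 0.231 CPM in control, Rpl39l at 6.32 ± 0.618, Rpl22l1 at 7.14 ± 0.4 and Rpl10l, known from testis, at 38.1 ± 5.76 CPM (SD, n = 3). None of them passed in any comparison. Rps27l, a relative of Rps27, had 38.5, 38.5 and 45.9 CPM in control and 27.0, 33.7 and 33.5 CPM under BRD0705, with no overlap, a log2 fold change of -0.38 ± 0.09 (SE, n = 3 against 3) and an adjusted p of 0.051 in edgeR with Benjamini-Hochberg adjustment. Rpl22, which represses its paralog Rpl22l1, was at 274 ± 11.9 CPM in control and 238 ± 16 CPM under BRD0705 and did not pass.

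Rps4l, an intronless copy of the X-linked Rps4x, was counted at 467 ± 50.5 CPM in control, 498 ± 42.2 CPM under BRD0705 and 476 ± 25.4 CPM under CHIR (SD, n = 3), beside 683 ± 40.9, 635 ± 22.6 and 673 ± 25.9 CPM for Rps4x. How the reads of such copies were divided is not given in the sources used here, so both levels are uncertain. Rows named as ribosomal protein pseudogenes numbered 322, of which 57 were tested and 0 passed in any comparison in edgeR. At an unadjusted p under 0.05, 5 of the 57 were lower under BRD0705, where 8.08% of all genes were, and 1 was higher, where 7.77% were. Their median log2 fold change was -0.19 under BRD0705 and -0.04 under CHIR, at 0.0423, 0.0398 and 0.0419% of counts in control, BRD0705 and CHIR.

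Small nucleolar RNA genes aside, 6 of the 12 genes that fell under BRD0705 overlap another annotated gene, as do 46 of all 86 genes. On the same strand this held for 1 of the 12 and 10 of the 86. The use of strand in counting is not given in the sources used here. Rpl13a overlaps Gm45713 and Mir5121 on its own strand. On the opposite strand Rpl12 overlaps Lrsam1, Rpl35a overlaps Iqcg and Gm17106, Rpl36a overlaps Gla, Rps20 overlaps Lyn, and Rps27a overlaps Clhc1 and Mtif2. An annotated small nucleolar RNA gene, on either strand, overlapped 29 of the 84 genes. These 29 had a median log2 fold change of -0.18 under BRD0705 with 6 passing, and the other 55 had -0.13 with 6 passing. Whether the small nucleolar RNA genes lie in introns was not checked.

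The other genes of the ribosome and its regulators were read from lists. Over all genes, an unadjusted p under 0.05 with a lower level was reached by 8.08% under BRD0705 and 11.5% under CHIR. With a higher level the shares were 7.77% and 8.96%. After adjustment, 0.534% of all genes passed as lower and 0.69% as higher under BRD0705, and 3.78% as lower and 2.52% as higher under CHIR. Among 5 ribosomal proteins with other names, such as Fau, Rack1 and Rps3a1, none passed in edgeR in either comparison with control, with 2 lower at an unadjusted p under 0.05 for BRD0705 and 1 lower and 1 higher for CHIR. Rps3a1 had the lowest estimate for BRD0705, at 850 ± 38.7 CPM in control and 734 ± 47.5 CPM under BRD0705 (SD, n = 3). Of 17 translation factors and other genes with TOP mRNAs, 3 fell under BRD0705, Hnrnpa1 (an RNA-binding protein), Eif3e (a subunit of the initiation factor eIF3) and Nap1l1 (a histone chaperone). Their log2 fold changes were -0.24, -0.24 and -0.23. Under CHIR only Hnrnpa1 fell, by 0.21.

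Among 29 genes of ribosome assembly, 2 fell under BRD0705, Nop58 and Dkc1, the core proteins of box C/D and H/ACA snoRNPs, with log2 fold changes of -0.23 and -0.22. Under CHIR 5 rose and none fell. Tsr2, known as the chaperone that delivers Rps26, rose from 23.7 ± 1.67 to 31.3 ± 2.01 CPM (SD, n = 3), a log2 fold change of 0.40 ± 0.07 (SE, n = 3 against 3; Benjamini-Hochberg adjusted p = 0.0032 in edgeR). Nop56, Tsr1 and Taf1d rose by 0.27, 0.22 and 0.21, and Nop2, named here after its value of 0.20 was seen, also passed.

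Of 78 mitochondrial ribosomal proteins, 0 passed under BRD0705 in edgeR, with 17 lower and 2 higher at an unadjusted p under 0.05, and 2 rose under CHIR, Mrpl49 by 0.30 and Mrpl4 by 0.24 on the log2 scale. Their medians were -0.06 and -0.01. Of 14 genes that control translation, 0 passed under BRD0705, with 1 lower and 5 higher at an unadjusted p under 0.05. Under CHIR Mlst8, a subunit of mTOR complexes, rose by 0.29 and Myc, a transcription factor that drives ribosomal protein genes, fell by 0.25. Myc was at 56.6 ± 4.77 CPM in control, 66.0 ± 5.67 CPM under BRD0705 and 47.7 ± 0.875 CPM under CHIR (SD, n = 3), and the difference between the inhibitors was 0.47 (Benjamini-Hochberg adjusted p = 0.00057 in edgeR).

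**Figure D5:**
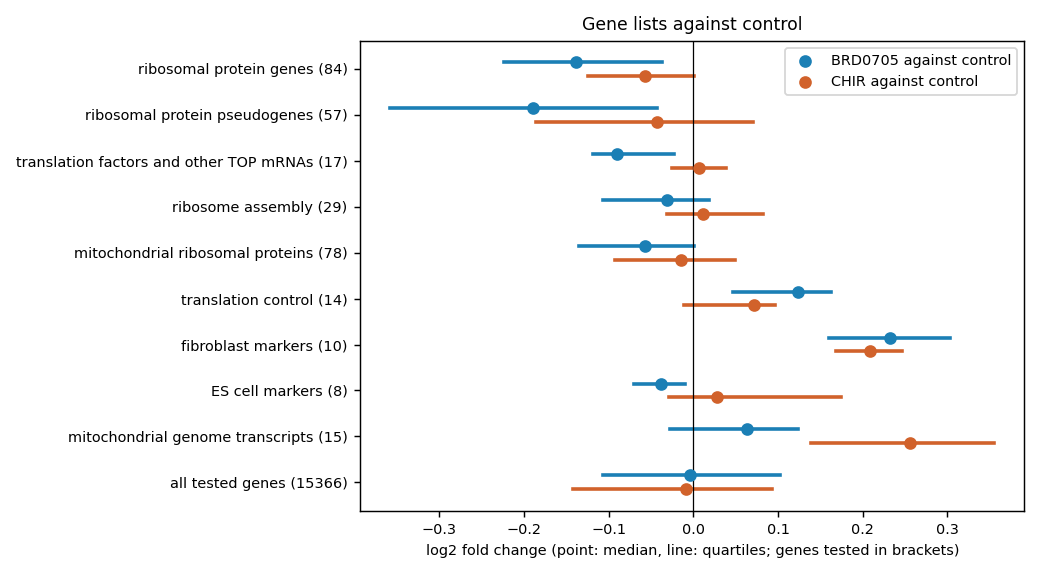
Median (point) and quartiles (line) of the log2 fold change against control (horizontal axis) in each gene list (vertical axis, genes tested in brackets), with BRD0705 in blue and CHIR in orange. The ribosomal protein genes had medians of -0.14 and -0.06, the mitochondrial ribosomal proteins -0.06 and -0.01, and all tested genes lay near 0.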

How the data were processed

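RNA sequencing gave 9 libraries, 3 each of control, BRD0705 and CHIR, grouped by the labels. The authors deposited whole-number counts per gene symbol and a second table treated here as signal, which equals those counts divided by 1 size factor per library. RSEM, DESeq2 and mm10 are named in the submitters' processing notes, with no role, version or order, so the counts may be rounded estimates. Aligner, annotation and use of strand are not given in the sources used here. Per the labels' protocols, libraries were made with a TruSeq kit after ribosomal RNA depletion, while the molecule label says polyA RNA; this was not resolved.

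The test was that of edgeR 4.0.16 (R 4.3.3): filterByExpr by group with a minimum count of 10, TMM scaling, 1 quasi-likelihood fit of 3 group means to 9 libraries (6 residual degrees of freedom), and Benjamini-Hochberg adjustment over 15366 genes with a threshold of 0.05. Tests were 2-sided. Each standard error is the size of the fold change over the root of its F statistic. CPM used TMM-scaled totals. The procedure was tested on simulated counts. Depth, 17359422 to 20773337 counts per library, limits the genes at a few CPM most.

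Members and lists were chosen with earlier results of these data known. Named genes were members past the threshold, the 4 largest rises and falls per comparison, a set of paralogs, stalk proteins, Rpsa and Rps6, the 4 highest levels per coding length, and up to 4 genes per further list. Of the genes this rule names, 2 are not reported here. Coding lengths, GC content and overlaps came by symbol from GENCODE vM39 on GRCm39, not stated to be the authors' annotation (98% of tested genes matched); start positions and sequences came from RefSeq GRCm38.p6. Alternatives were DESeq2 1.42.0, limma 3.58.1 with voom, 2 other scalings, 2 other filters, only the groups compared, log2 of the deposited normalized values with a pseudocount of 1 or 0.1, a GC and length correction (splines with 5 degrees of freedom), a replicate block, both together, a fibroblast marker covariate, pseudogene rows added to their parents and each library left out. A correction with coding length and leaving out 5 copies of other members were chosen after seeing the data.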

Additional observations from a re-analysis of the deposited data

How the results depend on the processing

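The 12 ribosomal protein genes that passed under BRD0705 became 28 with DESeq2 and 30 with no low-count filter, and 7 with the GC and length correction plus the replicate block and 0 with the fibroblast marker covariate. The 3 that passed under CHIR became 5 with DESeq2, 6 with library size only, 13 with no low-count filter, 6 with the GC and coding length correction and 1 with the covariate. The 3 that differed between the inhibitors became 8 with DESeq2, 10 with no low-count filter, 5 with either pseudocount on the normalized values, 8 with the GC and length correction, 10 with that correction plus the replicate block and 6 with the GC and coding length correction. The median log2 fold change under CHIR reversed to 0.014 with the GC and length correction and to 0.015 with the replicate block added, while that under BRD0705 was below 0 in all 16 alternatives, from -0.146 to -0.091. The causes were not tested. The shares of all genes that passed in these alternative fits, those below included, are not given here. A changed count is therefore not read as particular to these genes. The replicate block alone gave 21, 7 and 7 genes. Over all genes, same-numbered libraries did not deviate together (correlations -0.0897 to 0.0802 over 9 pairs), so the numbers were not used as pairs. The ribosomal protein genes alone were lowest in replicate 2 of each group, with median deviations from the group mean of -0.064, -0.066 and -0.037 on the log2 scale, and the labels do not say what a number marks. Leaving out 1 library gave 1 to 26 genes for BRD0705, 0 to 5 for CHIR and 2 to 10 between the inhibitors, with medians of -0.17 to -0.098, -0.083 to -0.031 and -0.13 to -0.036. The share of counts was then 6.97 to 7.14% in control, 6.46 to 6.79% with BRD0705 and 6.74 to 6.87% with CHIR, and the CHIR share was 6.93% of a total without pseudogenes and mitochondrial transcripts. Of the 12 genes, all 12 passed with voom and with DESeq2, and 6 with the GC and length correction. Genes of a few CPM, such as Rpl3l and Rpl6l, had standard errors above 0.2 on the log2 scale.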
